A study of Homo sapiens with 27 samples.

Results

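The genes described here are ligands, receptors, signal transducers and a target of the transforming growth factor beta (TGF-beta) and activin pathway. They are TGFB1, TGFB2, TGFB3, INHBA, INHBB, TGFBR1, TGFBR2, SMAD3, SMAD7 and TGFBI, and all 24 probe sets whose platform annotation gives 1 of these symbols alone were taken. That is 10 of 19775 genes and 24 of 54613 probe sets of the array. No measured value entered the choice of the probe sets, but the genes were chosen with earlier results of these data known.

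TGF-beta ligands are secreted in a latent complex and, once freed, bind the type II receptor TGFBR2, which recruits and activates the type I receptor TGFBR1. The activated receptor phosphorylates SMAD2 and SMAD3, which enter the nucleus with SMAD4 and regulate genes of extracellular matrix, adhesion and cell cycle arrest. SMAD7 is a target of the pathway that feeds back to inhibit the receptors. Activins are dimers of inhibin beta subunits, among them those encoded by INHBA and INHBB, and signal through their own receptors to the same SMAD proteins. In carcinoma cells the pathway is known both for growth arrest and for invasion.

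The 27 arrays, of the Human Genome U133 Plus 2.0 design, measured RNA of 3 established human cancer cell lines. PC-3 is a prostate cancer line, SK-OV-3 an ovarian adenocarcinoma line and WM793B a melanoma line. Each line was cultured for 72 h under chronic hypoxia (1% oxygen throughout), under cycling hypoxia (periods of 4 h or 12 h at 1% oxygen, each followed by 4 h at 21% oxygen, so that the cells were harvested after reoxygenation) or under control conditions (21% oxygen), with 3 arrays per group. All 3 lines were grown on glass. PC-3 cells were grown in RPMI medium, SK-OV-3 cells in McCoy's medium and WM793B cells in Tu medium with less serum and with insulin. Medium and cell line can thus not be told apart in any pair of lines. The labels call the arrays of a group biological replicates and say no more of how the cultures were separated, so the p values measure the spread between these arrays.

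Values are log2 signals after GC-RMA, a method that corrects the background by probe sequence, and a value under 5 is called noise level here. A gene is read by its brightest probe set. A change was called at an adjusted p under 0.05 in limma's moderated test, fitted within a cell line over its 9 arrays and adjusted over all 54613 probe sets. Of the genes that report low oxygen, ANKRD37, BNIP3, NDRG1 and VEGFA, all 4 rose under chronic hypoxia in each line, and under cycling hypoxia all 4 rose in PC-3 cells, all 4 in SK-OV-3 cells and 1 in the melanoma line. The epithelial genes CDH1 and EPCAM stood at 9.28 or above on every array of PC-3 or SK-OV-3 cells, called the epithelial lines below, and at 3.72 or below on all WM793B arrays. SOX10 and S100B, markers of the melanocyte lineage, stood at 9.99 or above in WM793B cells and at noise level in the other lines, while the pigment cell genes PMEL, MLANA and TYR were at noise level there. MITF, the melanocyte transcription factor gene, did not set WM793B cells apart, at 8.21 to 8.56 there against 9.15 to 9.60 in SK-OV-3 and 7.43 to 7.86 in PC-3 cells. The median brightest probe set above noise level shifted by -0.11 (log2) under chronic hypoxia in PC-3 cells and by at most 0.1 in each other comparison.

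Most of the pathway genes that changed against control conditions rose. In PC-3 cells 6 of the 10 genes rose and 1 fell under chronic hypoxia, and 6 rose and 1 fell under cycling hypoxia. In SK-OV-3 cells 4 rose under chronic and 5 under cycling hypoxia, and none fell. In WM793B cells 2 rose under chronic and 1 under cycling hypoxia, and again none fell. Changes of at least 2-fold were all rises, of TGFB1 and TGFBR1 in PC-3 cells under chronic hypoxia, of TGFB1, SMAD3, SMAD7 and TGFBI in SK-OV-3 cells under chronic hypoxia, of TGFB1 and TGFBI under cycling hypoxia in SK-OV-3 cells, and of TGFB2 in WM793B cells under either. The fitted rise of INHBA under cycling hypoxia in SK-OV-3 cells was also over 2-fold, but was taken against control arrays at noise level.

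These counts are read against a strong response of the whole array. Among all probe sets, 26.1% were called in PC-3 cells under chronic hypoxia (10.9% higher) and 17.1% under cycling hypoxia (8.44% higher). The shares were 16.7% (7.68% higher) and 10.5% (5.43% higher) for SK-OV-3, and for WM793B they were 14.2% (6.63% higher) and 4.39% (2.34% higher). Among the 11125 genes whose brightest probe set rose above noise level in some group, 61.2% were called in PC-3 cells under chronic hypoxia (22.8% higher) and 41.9% under cycling hypoxia (19.4% higher). The same shares were 43% (19.6% higher) and 28.5% (14.9% higher) for SK-OV-3, and for WM793B they were 33.3% (14.7% higher) and 11% (6.01% higher). The share of pathway genes called in either direction was thus close to that of bright genes under chronic hypoxia in the epithelial lines and above it under cycling hypoxia. In WM793B cells it was below that share under chronic and near it under cycling hypoxia. The share of rises alone was higher than among bright genes in the epithelial lines. Groups that do not overlap, as named below for single genes, were common in this series. Hypoxic and control arrays did not overlap for 71.5% of bright genes under chronic and 60.6% under cycling hypoxia in PC-3 cells. The shares were 58.4% and 53.9% for SK-OV-3 and 53.9% and 41.8% for WM793B. Cycling and chronic arrays did not overlap for 55.4%, 48.9% and 35.2% of bright genes in the same order of lines. Rises of at least 2-fold made up 3.72% of all probe sets and 6.51% of bright genes for PC-3 under chronic hypoxia, 3.48% and 8.3% for SK-OV-3 under chronic and 2.03% and 5.29% under cycling hypoxia, and 2.06% and 3.63% for WM793B under chronic and 0.425% and 0.944% under cycling hypoxia. The median log2 fold change of the 10 genes was 0.65 under chronic and 0.48 under cycling hypoxia for PC-3, 0.80 and 0.72 for SK-OV-3, and 0.10 and 0.05 for WM793B, where the medians of all bright genes were -0.11, -0.02, -0.02, 0.00, -0.02 and 0.01 in the same order.

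**Figure D1:**
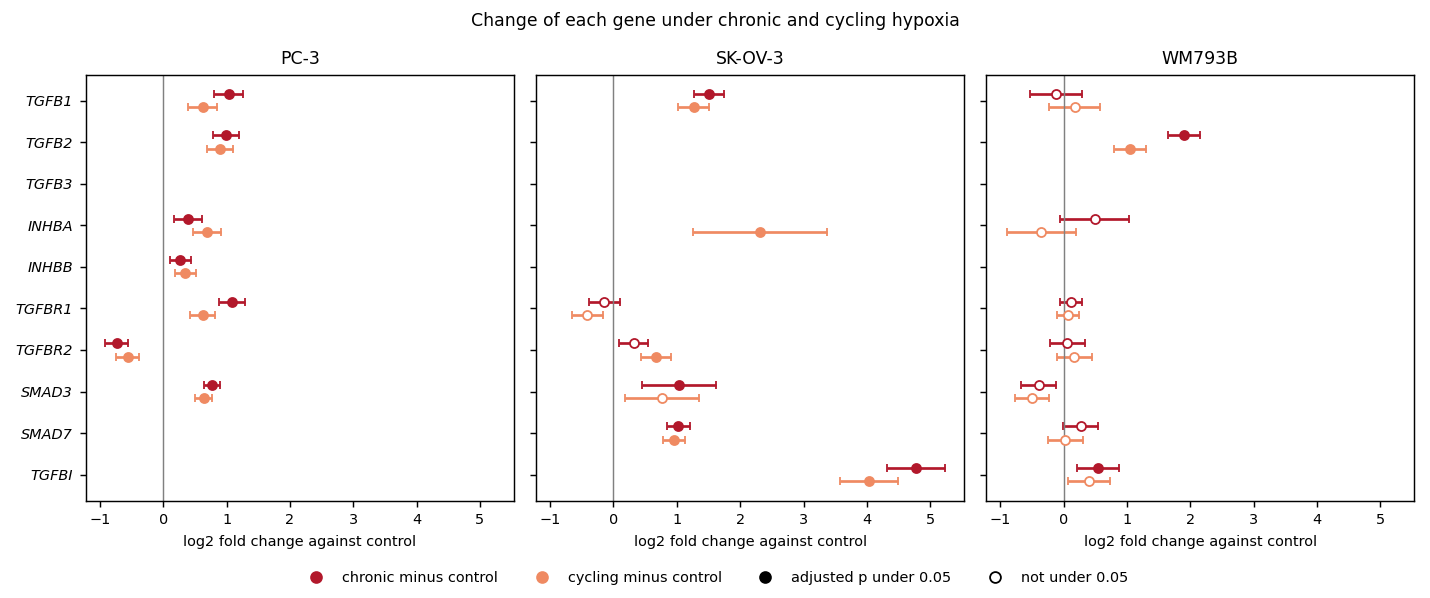
Log2 fold change against control conditions with its 95% confidence interval (limma, 3 arrays per group) for the brightest probe set of each gene, in 1 panel per cell line, with chronic hypoxia in red and cycling hypoxia in orange. Filled points have an adjusted p under 0.05, and genes at noise level in both groups are left out. TGFBI in SK-OV-3 cells, at 4.77 and 4.03, stands far to the right of every other point, and INHBA in SK-OV-3 cells is fitted against control arrays at noise level.

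The lines were also compared in their responses. A fit over all 27 arrays called a difference between lines in the response to chronic hypoxia for 7 of the 10 genes (30.8% of all probe sets and 67.3% of bright genes were called) and in the response to cycling hypoxia for 7 (19.9% and 46.9%). The share for chronic hypoxia was thus close to that of bright genes. INHBA is in both counts, with SK-OV-3 control arrays at noise level. TGFBI, also in both, was at noise level in all PC-3 groups. TGFB2, in the count for chronic hypoxia, was at noise level in all SK-OV-3 groups. SMAD7, in the count for cycling hypoxia, was at noise level in PC-3 cells. The size of a difference from a line at noise level was not measured.

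The ligand TGFB1, the most widely produced of the TGF-beta isoforms, rose in the 2 epithelial lines. In SK-OV-3 cells it measured 9.10, 8.90 and 8.79 under chronic hypoxia, 8.71, 8.73 and 8.62 under cycling hypoxia, and 7.33, 7.60 and 7.33 under control conditions. The log2 fold change was 1.51 (standard error 0.10, adjusted p = 0.000166) for chronic and 1.27 (0.10, adjusted p = 0.00068) for cycling hypoxia. All hypoxic arrays of this line lay above all of its control arrays. In a bulk sample, more cells that express a gene and more RNA per cell cannot be told apart.

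In PC-3 cells TGFB1 measured 9.02, 9.23 and 9.16 under chronic hypoxia, 8.54, 8.77 and 8.88 under cycling hypoxia, and 8.10, 8.06 and 8.16 under control conditions. It rose by 1.03 (standard error 0.10, adjusted p = 0.000235) under chronic and by 0.62 (0.10, adjusted p = 0.0048) under cycling hypoxia, and the 3 groups did not overlap. With the mean of both probe sets of the gene, the other of which was at noise level in every group, the rise under cycling hypoxia was 0.34 and not called (adjusted p = 0.0834). In WM793B cells it averaged 7.40 ± 0.28 under chronic hypoxia, 7.70 ± 0.06 under cycling hypoxia and 7.53 ± 0.25 under control conditions (SD, n = 3 each), and the groups overlapped. The 95% intervals of the changes there ran from -0.54 to 0.28 for chronic and from -0.24 to 0.58 for cycling hypoxia. The response to chronic hypoxia was larger in SK-OV-3 than in WM793B cells by 1.63 (standard error 0.19, adjusted p = 1.7e-06). SK-OV-3 and PC-3 cells differed in it by 0.48 (0.19, adjusted p = 0.0747), which was not called.

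TGFB2, an isoform prominent in development and in the eye, rose in the other combination of lines, PC-3 and WM793B. In WM793B cells it measured 8.98, 8.76 and 9.20 under chronic hypoxia, 8.12, 8.14 and 8.11 under cycling hypoxia, and 7.13, 7.12 and 6.99 under control conditions, 3 groups that did not overlap. It rose by 1.90 (standard error 0.11, adjusted p = 0.000254) under chronic and by 1.05 (0.11, adjusted p = 0.00588) under cycling hypoxia. With a robust prior the call for cycling hypoxia was lost (adjusted p = 0.152). In PC-3 cells TGFB2 averaged 7.35 ± 0.15 under chronic hypoxia, 7.25 ± 0.04 under cycling hypoxia and 6.36 ± 0.10 under control conditions (SD, n = 3 each), with log2 fold changes of 0.99 (adjusted p = 0.000181) and 0.90 (adjusted p = 0.000666). All hypoxic PC-3 arrays lay above the control arrays. In SK-OV-3 cells its highest array was at 4.67, under noise level. The response to chronic hypoxia was larger in WM793B than in PC-3 cells by 0.91 (standard error 0.22, adjusted p = 0.00623). TGFB3, the third isoform, was at noise level in all groups, with no array above 3.91.

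INHBA encodes the beta A subunit of activin A. In PC-3 cells it stood at 11.57, 11.46 and 11.50 under chronic hypoxia, 11.88, 11.72 and 11.83 under cycling hypoxia, and 11.19, 10.91 and 11.26 under control conditions. The rises were 0.39 (standard error 0.09, adjusted p = 0.0227) under chronic and 0.69 (0.09, adjusted p = 0.00292) under cycling hypoxia, and both sets of hypoxic arrays lay above the control arrays. The call for chronic hypoxia was lost without chronic replicate 1 (adjusted p = 0.0761) or 3 (adjusted p = 0.0614), and in 1 fit over all 27 arrays neither rise was called (adjusted p = 0.457 and 0.152).

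In SK-OV-3 cells INHBA lay at the edge of the noise level, at 5.58, 4.89 and 4.48 under chronic hypoxia and 4.77, 5.90 and 6.33 under cycling hypoxia, against 3.38, 3.27 and 3.42 under control conditions. Under cycling hypoxia it was called (log2 fold change 2.31, standard error 0.44, adjusted p = 0.0197), and against the noise level itself its mean was at least 1.59-fold higher. That call was lost without cycling replicate 2 or 3 or any of the 3 control arrays (adjusted p = 0.0559 to 0.0742) and with the replicate block (adjusted p = 0.0801). The other 2 probe sets of the gene averaged under noise level in every SK-OV-3 group. Under cycling hypoxia 210511_s_at averaged 4.91 against 2.73 under control conditions, and 204926_at averaged 2.49 in both groups. In WM793B cells INHBA measured 9.56, 9.55 and 9.27 under chronic hypoxia, 8.93, 8.84 and 8.09 under cycling hypoxia, and 9.0, 9.09 and 8.83 under control conditions. No change against control was called there (adjusted p = 0.272 for chronic and 0.642 for cycling hypoxia). Chronic hypoxia lay above the control arrays and cycling hypoxia overlapped them.

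INHBB, which encodes the activin beta B subunit, was above noise level in PC-3 cells alone. There it stood at 11.25, 11.25 and 11.26 under chronic hypoxia, 11.34, 11.36 and 11.30 under cycling hypoxia, and 11.07, 10.82 and 11.09 under control conditions. The hypoxic arrays lay above the control arrays by small steps, 0.26 for chronic (standard error 0.07, adjusted p = 0.0306) and 0.34 for cycling hypoxia (0.07, adjusted p = 0.0157). Without 1 of the 3 chronic or 3 cycling arrays the call for chronic hypoxia was lost (adjusted p = 0.0533 to 0.0851), and without cycling replicate 1 or 2 so was that for cycling hypoxia (adjusted p = 0.0519 and 0.0581). With the replicate block (adjusted p = 0.0659) or in 1 fit over all 27 arrays (adjusted p = 0.0708) the call for chronic hypoxia was lost as well. In the other lines INHBB was at noise level, with no array above 3.80.

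**Figure D2:**
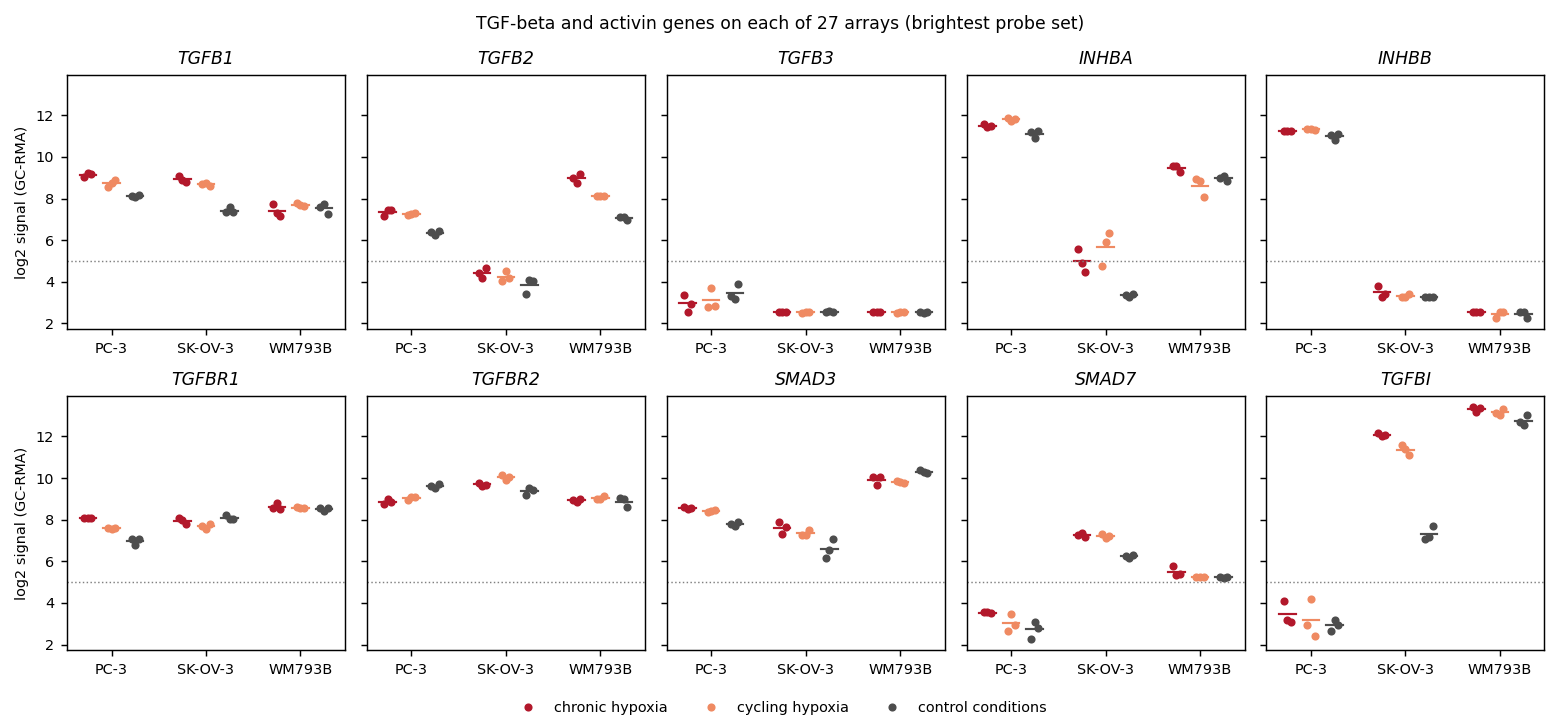
Log2 signal (y axis) of the brightest probe set of each of the 10 genes on each of the 27 arrays, by cell line, with chronic hypoxia in red, cycling hypoxia in orange and control conditions in grey; short lines are means of 3 arrays and the dotted line is the noise level of 5. TGFB1 separates hypoxic from control arrays in the epithelial lines, TGFB2 in PC-3 and WM793B cells, and TGFB3 stays below the dotted line.

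The promoters of TGFB1, TGFB2 and TGFBI are shown because these genes had the largest called rises among those above noise level on both sides. All 10 genes matched the promoter table of RefSeq (GRCh38.p14), and for each the window of 250 bases before the start site nearest to the outer end of the gene was read. Both strands were searched for ACGTG and GCGTG, the core sequences of the hypoxia response element bound by hypoxia-inducible factors, and for CAGAC, a short SMAD-binding sequence. ACGTG occurred in 18.5% of all promoter windows of this length, GCGTG in 32.2% and CAGAC in 38%. The sequences run 5′ to 3′ on the strand of the gene, with ACGTG and GCGTG or their complements in capitals. The TGFB1 window is chr19:41353923-41354172, minus strand, that of TGFB2 is chr1:218345086-218345335, plus strand and that of TGFBI is chr5:136028738-136028987, plus strand.
TGFB1: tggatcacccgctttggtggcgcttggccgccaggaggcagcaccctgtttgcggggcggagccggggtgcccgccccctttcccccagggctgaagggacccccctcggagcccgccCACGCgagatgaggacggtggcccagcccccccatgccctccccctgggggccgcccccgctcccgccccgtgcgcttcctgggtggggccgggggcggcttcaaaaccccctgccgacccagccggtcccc
TGFB2: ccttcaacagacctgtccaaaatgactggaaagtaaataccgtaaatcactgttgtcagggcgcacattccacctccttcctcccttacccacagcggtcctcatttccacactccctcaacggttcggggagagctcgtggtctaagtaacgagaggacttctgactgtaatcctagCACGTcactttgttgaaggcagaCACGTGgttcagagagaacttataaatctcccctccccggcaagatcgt
TGFBI: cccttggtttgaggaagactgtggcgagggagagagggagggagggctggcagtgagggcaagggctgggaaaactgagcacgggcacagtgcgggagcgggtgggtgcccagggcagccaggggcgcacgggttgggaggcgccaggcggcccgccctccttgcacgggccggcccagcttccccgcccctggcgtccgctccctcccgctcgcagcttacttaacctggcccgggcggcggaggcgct
TGFB1 held a single match, GCGTG on the opposite strand at 132 to 128 bases before the start. TGFB2 held ACGTG on the opposite strand at 72 to 68 bases, and on both strands at 49 to 44 bases, where the matches overlap in the palindrome CACGTG, and CAGAC at 53 and 243 bases. CACGTG was in 6.34% of all windows. TGFBI held none of the 3 sequences. TGFB3 also held the palindrome, at 20 to 15 bases, and SMAD3 held it at 173 to 168 bases. TGFBR2 held ACGTG once, SMAD7 held CAGAC at 2 positions, and the windows of INHBA, INHBB and TGFBR1 held no match. For INHBA the start site used lay 2316 bases from the outer end of the gene. The matches are matches of letters in these windows only.

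The receptor genes moved in opposite directions in PC-3 cells. TGFBR1, the signalling type I receptor, measured 8.07, 8.06 and 8.06 under chronic hypoxia, 7.61, 7.58 and 7.60 under cycling hypoxia, and 7.09, 6.76 and 7.07 under control conditions. It rose by 1.09 (standard error 0.08, adjusted p = 0.000108) under chronic and by 0.62 (0.08, adjusted p = 0.00293) under cycling hypoxia. TGFBR2, the ligand-binding type II receptor, measured 8.76, 8.99 and 8.84 under chronic hypoxia, 8.96, 9.08 and 9.07 under cycling hypoxia, and 9.60, 9.50 and 9.70 under control conditions. It fell by 0.74 (standard error 0.08, adjusted p = 0.000389) under chronic and by 0.56 (0.08, adjusted p = 0.00273) under cycling hypoxia. For both receptors the hypoxic arrays of PC-3 cells lay wholly to 1 side of the control arrays.

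In SK-OV-3 cells TGFBR2 was the receptor gene that rose. It averaged 9.69 ± 0.06 under chronic hypoxia, 10.04 ± 0.12 under cycling hypoxia and 9.37 ± 0.17 under control conditions (SD, n = 3 each). It rose by 0.67 under cycling hypoxia (standard error 0.10, adjusted p = 0.00643), and the 0.32 of chronic hypoxia was not called (adjusted p = 0.0762). That difference was called in 4 alternatives, namely 1 fit over 27 arrays, a filter on variation over the arrays, only probe sets above noise level and quantile scaling (adjusted p = 0.0242 to 0.0401), and it was -0.17 with the mean of both probe sets (adjusted p = 0.464). TGFBR1 averaged 7.95 ± 0.14 under chronic hypoxia, 7.67 ± 0.13 under cycling hypoxia and 8.09 ± 0.12 under control conditions, with changes of -0.15 (adjusted p = 0.53) and -0.42 (adjusted p = 0.0517) that were not called. The cycling arrays of TGFBR1 all lay below the control arrays, so that the call turns on the setting. The change was called in 1 fit over 27 arrays (adjusted p = 0.00232), with only probe sets above noise level (0.0189), with median centring (0.0403) or quantile scaling (0.0469), and without chronic replicate 3 (0.0486). In WM793B cells the 95% intervals of the changes ran from -0.11 to 0.29 for TGFBR1 and from -0.22 to 0.45 for TGFBR2, over chronic and cycling hypoxia together.

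The differences between lines were called for both receptors. Under chronic hypoxia the response of TGFBR1 was lower in SK-OV-3 than in PC-3 cells by 1.23 (standard error 0.13, adjusted p = 3.96e-07), and that of TGFBR2 was higher in SK-OV-3 than in PC-3 cells by 1.06 (0.14, adjusted p = 1.04e-05). Over the 27 arrays, after the mean of each cell line was taken off, the receptors had a Pearson correlation of -0.80. This is a description, since the arrays share the 9 groups.

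SMAD3, a transducer that the activated receptors phosphorylate, rose in the epithelial lines. In PC-3 cells it measured 8.59, 8.49 and 8.59 under chronic hypoxia, 8.38, 8.42 and 8.47 under cycling hypoxia, and 7.77, 7.70 and 7.89 under control conditions. It rose by 0.77 (standard error 0.06, adjusted p = 7.26e-05) and by 0.64 (0.06, adjusted p = 0.000431) in the same order of conditions. No hypoxic array fell among the control arrays. In SK-OV-3 cells it measured 7.89, 7.32 and 7.66 under chronic hypoxia, 7.26, 7.27 and 7.52 under cycling hypoxia, and 6.18, 6.53 and 7.05 under control conditions, where the control arrays spread widest. The rise of 1.04 under chronic hypoxia was called (standard error 0.25, adjusted p = 0.0304), and the difference of 0.76 under cycling hypoxia was not (adjusted p = 0.125). Without any of cycling replicates 1 to 3, chronic replicates 1 or 3 or control replicates 1 or 2 the call for chronic hypoxia was lost (adjusted p = 0.0505 to 0.0952), as it was with the replicate block (adjusted p = 0.0527). The difference for cycling hypoxia was called without control replicate 3 (adjusted p = 0.0409), in 1 fit over 27 arrays (0.00217), with the mean of probe sets (0.0359), with only probe sets above noise level (0.039) and with the variation filter (0.0492).

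In WM793B cells SMAD3 lay lower under hypoxia, at 10.04, 9.64 and 10.07 under chronic and 9.87, 9.81 and 9.75 under cycling hypoxia, against 10.38, 10.29 and 10.27 under control conditions. No hypoxic array reached the control arrays, but the differences of -0.40 (adjusted p = 0.0703) and -0.50 (adjusted p = 0.0656) were not called. Without chronic replicate 2 both were (adjusted p = 0.0298 and 0.00921), as they were when only probe sets above noise level were tested (adjusted p = 0.0212 and 0.0183). Between lines, the response to chronic hypoxia was higher in SK-OV-3 than in WM793B cells by 1.43 (standard error 0.23, adjusted p = 9.99e-05).

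SMAD7, the inhibitory SMAD, rose in SK-OV-3 cells. It measured 7.27, 7.37 and 7.17 under chronic hypoxia and 7.31, 7.10 and 7.20 under cycling hypoxia, against 6.25, 6.18 and 6.33 under control conditions. The hypoxic groups overlapped each other and lay above the control arrays. The log2 fold changes were 1.02 (standard error 0.07, adjusted p = 0.000227) and 0.96 (0.07, adjusted p = 0.000607). In WM793B cells it stood close to noise level, at 5.50 ± 0.24 under chronic hypoxia, 5.26 ± 0.00 under cycling hypoxia and 5.23 ± 0.04 under control conditions (SD, n = 3 each), and 4 of the 9 arrays held the same value, 5.256. Neither change was called there (adjusted p = 0.227 for chronic hypoxia and 1 for cycling hypoxia). In PC-3 cells SMAD7 was at noise level.

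TGFBI encodes a secreted matrix protein named for its induction by TGF-beta. It had the largest change of the 10 genes, in SK-OV-3 cells. There it measured 12.18, 12.02 and 12.07 under chronic hypoxia, 11.58, 11.38 and 11.10 under cycling hypoxia, and 7.07, 7.18 and 7.71 under control conditions, 3 groups with no overlap. The log2 fold change was 4.77 (standard error 0.19, adjusted p = 2.47e-05), or 27.3-fold, under chronic and 4.03 (0.19, adjusted p = 0.000116), or 16.4-fold, under cycling hypoxia. In WM793B cells the gene was high in every group, at 13.41, 13.17 and 13.36 under chronic hypoxia, 13.13, 13.05 and 13.31 under cycling hypoxia, and 12.69, 12.57 and 13.05 under control conditions. The rise of 0.54 under chronic hypoxia was called there (standard error 0.14, adjusted p = 0.0473), but not without any of the arrays other than control replicate 3 (adjusted p = 0.0591 to 0.149) nor in 1 fit over all 27 arrays (adjusted p = 0.32), with a robust prior (0.123) or with no trend (0.0536). The highest signal on any array was 15.52, and whether signals as high as those of TGFBI here are compressed was not tested. In PC-3 cells TGFBI was at noise level, with no array above 4.17. The response of SK-OV-3 cells to chronic hypoxia was larger than that of WM793B cells by 4.23 (standard error 0.46, adjusted p = 8.93e-07).

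Chronic and cycling hypoxia were also compared directly. Called differences were few and all had cycling below chronic hypoxia. In PC-3 cells 2 of the 10 genes were lower under cycling hypoxia, where 4.47% of all probe sets and 9.51% of bright genes were called lower. They were TGFBR1 (log2 difference -0.47, standard error 0.08, adjusted p = 0.0131) and TGFB1 (-0.41, 0.10, adjusted p = 0.0331). For TGFB1 the call was lost without cycling replicate 2, chronic replicate 2 or 3 or any control array (adjusted p = 0.0575 to 0.102). With the mean of all probe sets of each gene neither was called (adjusted p = 0.0585 for TGFBR1 and 0.607 for TGFB1). In WM793B cells TGFB2 alone was lower under cycling hypoxia (-0.86, standard error 0.11, adjusted p = 0.0131), where 3.65% of all probe sets and 8.72% of bright genes were called in either direction. This was not called without cycling replicate 1 or 2 (adjusted p = 0.0554 and 0.0541) or with a robust prior (adjusted p = 0.25).

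In SK-OV-3 cells none of the 10 genes was called between cycling and chronic hypoxia, where limma called 10% of all probe sets and 25.9% of bright genes. TGFBI came nearest, with a difference of -0.74 (adjusted p = 0.0622, unadjusted p = 0.00682). The unadjusted p was under 0.05 for 3 of the 10 genes there. The share of bright genes at that looser threshold was not taken and is at least the 25.9% above. The count is thus not read as a result about the 10 genes. TGFBI was called without control replicate 3 (adjusted p = 0.0239) and with the variation filter, only probe sets above noise level or median centring (adjusted p = 0.0153 to 0.0231). TGFBR2 (0.35, adjusted p = 0.0761) was called without control replicate 1 (adjusted p = 0.0357) and in 5 alternatives, those 3, 1 fit over 27 arrays and the mean of both probe sets (adjusted p = 0.00856 to 0.0329). The difference between cycling and chronic hypoxia itself varied between lines for TGFB1, TGFB2 and INHBA (adjusted p = 0.0236, 0.0336 and 0.0357), 3 of 10 genes where 16.8% of all probe sets and 39% of bright genes were called.

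Further probe sets bear on how firmly a gene is read. TGFB2 is read by 3 probe sets above noise level, and all had rises in WM793B cells, of 1.90, 1.92 and 1.77 under chronic and 1.05, 1.37 and 1.27 under cycling hypoxia. The 3 probe sets of INHBA rose together in PC-3 cells but by unequal amounts. Under chronic hypoxia 227140_at rose by 0.39, 210511_s_at by 1.49 (standard error 0.11, adjusted p = 8.9e-05) and 204926_at (adjusted p = 0.00828) by at least 2.74-fold, since its control arrays were at noise level. Between cycling and chronic hypoxia in PC-3 cells the first of these had a difference of 0.31 (adjusted p = 0.0907), and 210511_s_at fell by 0.54 (adjusted p = 0.0211), so the order of the hypoxic conditions for INHBA depends on the probe set. In WM793B cells the same pair had differences of -0.84 (adjusted p = 0.118) and -0.80 (adjusted p = 0.0348).

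TGFBR2 had a second, dimmer probe set, 207334_s_at, that fell with the brightest in PC-3 cells, by 0.75 and 0.48 under chronic and cycling hypoxia. In SK-OV-3 cells under chronic hypoxia it pointed the other way, at -0.66 (adjusted p = 0.119) beside 0.32 for 208944_at. It measured 6.69, 6.68 and 6.23 under cycling against 5.10, 5.79 and 5.42 under chronic hypoxia there, a rise of 1.10 (standard error 0.23, adjusted p = 0.0298). The 4 probe sets of SMAD3 all rose in PC-3 cells under chronic hypoxia, by 0.51 to 1.01. In WM793B cells 205396_at fell under chronic hypoxia (-0.41, adjusted p = 0.0319), and 205398_s_at (-0.58, adjusted p = 0.0405) and 205397_x_at (-0.60, adjusted p = 0.0174) fell under cycling hypoxia, while 205398_s_at stood at 0.11 under chronic hypoxia. The other probe sets of TGFB1 and TGFBR1 were at noise level in every group. Of these, TGFBR1 206943_at was still called higher in PC-3 cells under chronic and cycling hypoxia (limma, adjusted p = 0.000616 and 0.0063).

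**Figure D3:**
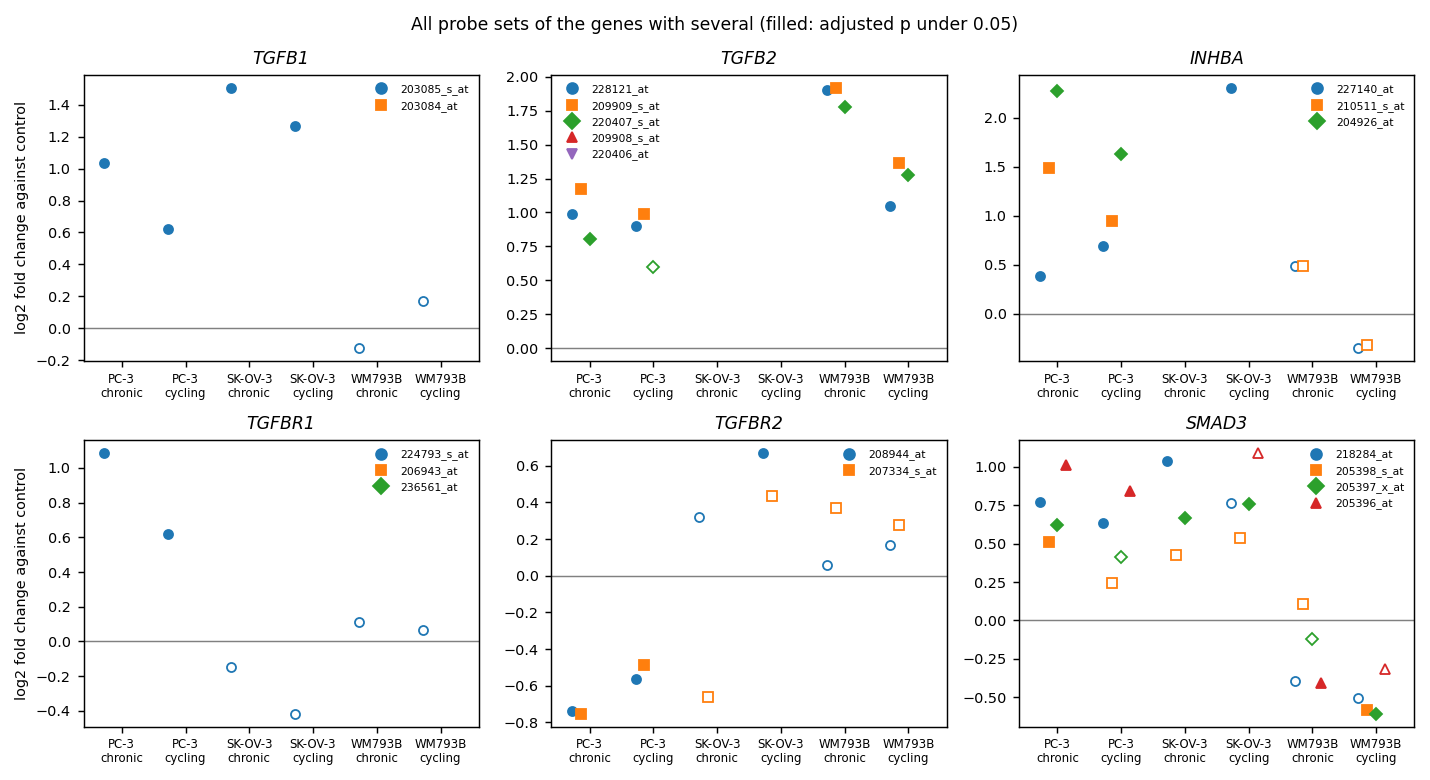
Log2 fold change against control conditions (y axis) for every probe set of the 6 genes with several, by cell line and kind of hypoxia (x axis); filled symbols have an adjusted p under 0.05, and probe sets at noise level in both groups are left out. The 3 probe sets of TGFB2 lie together in WM793B cells, and those of INHBA stand at 0.39 and 1.49 in PC-3 cells under chronic hypoxia, beside another point at 2.27 that is fitted against control arrays at noise level.

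The lines also differed in the level of these genes. Of the genes above noise level in at least 1 line of a pair under control conditions, 8 of 9 differed between SK-OV-3 and PC-3 cells, 9 of 9 between WM793B and PC-3 cells and 7 of 8 between SK-OV-3 and WM793B cells (limma, 27 arrays), where 35.8%, 35% and 37.1% of all probe sets and 75.9%, 73.7% and 77.5% of bright genes did. TGFBI ran from WM793B cells (12.77 ± 0.25) over SK-OV-3 cells (7.32 ± 0.34) down to PC-3 cells (2.92 ± 0.27; SD, n = 3 each), with neighbours differing by more than their spread. INHBA had another order, PC-3 (11.12 ± 0.18), WM793B (8.97 ± 0.13) and SK-OV-3 cells (3.36 ± 0.08). SMAD3 was highest in WM793B cells (10.31 ± 0.06), then PC-3 (7.79 ± 0.10) and SK-OV-3 cells (6.59 ± 0.44). The pairs that were not called were TGFBR2 in SK-OV-3 against PC-3 cells (-0.23, adjusted p = 0.0964) and TGFB1 in SK-OV-3 against WM793B cells (-0.11, adjusted p = 0.721). With the mean of all probe sets of a gene, TGFB2 in WM793B against PC-3 cells (0.007, adjusted p = 1) and TGFBR1 in SK-OV-3 against WM793B cells (-0.17, adjusted p = 0.289) were not called either.

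The rest of the pathway was read from lists of 55 different measured genes. In SK-OV-3 cells 21 of them rose and 4 fell under chronic hypoxia, and 19 rose and none fell under cycling hypoxia. In PC-3 cells 18 rose and 11 fell under chronic and 14 rose and 6 fell under cycling hypoxia. In WM793B cells 7 rose and 4 fell under chronic and 4 rose and none fell under cycling hypoxia. The median log2 fold change over the 55 genes was 0.13 and 0.25 for SK-OV-3, 0.03 and 0.05 for PC-3, and 0.00 and 0.05 for WM793B. Of the 46 genes above noise level in some group, 43.5% rose and 8.7% fell under chronic and 41.3% rose under cycling hypoxia in SK-OV-3 cells. In PC-3 cells 39.1% rose and 23.9% fell under chronic and 30.4% rose and 13% fell under cycling hypoxia, and in WM793B cells 15.2% rose and 8.7% fell under chronic and 8.7% rose under cycling hypoxia. The shares of all bright genes that rose are given above, and those that fell were 23.4% and 13.6% for SK-OV-3, 38.4% and 22.5% for PC-3, and 18.6% and 5.03% for WM793B. The rises in WM793B cells were thus close to the share of all bright genes.

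Genes of TGF-beta latency and activation rose in SK-OV-3 cells, 6 of 10 under chronic and 4 of 10 under cycling hypoxia, with none falling. The 8 of them that were above noise level in some group include all of these, and 19.6% and 14.9% of all bright genes rose. LTBP3, which binds latent TGF-beta to the matrix, averaged 9.32 under chronic and 8.08 under cycling hypoxia against 6.10 under control conditions (adjusted p = 8.5e-05 and 0.00123). THBS1, thrombospondin 1, an activator of latent TGF-beta, averaged 9.58 and 9.78 against 6.56 (adjusted p = 8.6e-06 and 2.6e-05). In PC-3 cells 2 of the 10 latency and activation genes rose and 2 fell under chronic hypoxia, where 22.8% of bright genes rose and 38.4% fell. THBS1 was 1 of the 2 that fell (log2 fold change -0.67, adjusted p = 0.0438). The integrin subunit ITGB8, part of an activator of latent TGF-beta, fell in PC-3 cells under both chronic (-0.75, adjusted p = 0.00026) and cycling hypoxia (-0.43, adjusted p = 0.0069). In WM793B cells LTBP2 rose (0.84, adjusted p = 0.0135) and the protease FURIN fell (-0.45, adjusted p = 0.0446) under chronic hypoxia, and none of the 10 was called under cycling hypoxia. Of all bright genes in that line, 14.7% rose and 18.6% fell under chronic hypoxia.

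Of 6 other ligand and inhibin subunit genes none rose, but only 3 of them were above noise level in some group. Under chronic hypoxia 22.8% of all bright genes rose and 38.4% fell in PC-3 cells. The shares were 19.6% and 23.4% for SK-OV-3 and 14.7% and 18.6% for WM793B. With so few genes, the absence of a rise is not read as a result. GDF11, close to noise level in the hypoxic cells, fell in PC-3 cells under chronic (-0.78, adjusted p = 0.0437) and cycling hypoxia (-1.02, adjusted p = 0.0213) and in WM793B cells under chronic hypoxia (-1.11, adjusted p = 0.00366). INHBE, the activin beta E subunit gene, averaged 6.76 under chronic hypoxia against 9.82 under control conditions in SK-OV-3 cells (-3.06, adjusted p = 0.0242). Among 7 other receptors, ACVR2B, an activin type II receptor, rose under chronic hypoxia in PC-3 (0.80, adjusted p = 0.0243) and SK-OV-3 cells (0.37, adjusted p = 0.000786). ACVR1B, the activin type I receptor, fell in PC-3 cells under chronic (-0.63, adjusted p = 0.00292) and cycling hypoxia (-0.55, adjusted p = 0.00955).

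The antagonist gene FSTL3, whose product binds activin, rose in all 6 comparisons with control conditions. Its log2 fold changes were 2.06 under chronic and 1.75 under cycling hypoxia for PC-3, 2.01 and 1.46 for SK-OV-3, and 0.89 and 0.67 for WM793B (adjusted p between 7e-05 and 0.0415). In PC-3 cells its control mean of 4.70 was under noise level. BAMBI, a decoy receptor that lacks the kinase domain, went in different directions under chronic hypoxia. It averaged 8.57 under chronic hypoxia against 6.81 under control conditions in PC-3 cells (1.76, adjusted p = 0.000222) and 7.29 against 9.14 in SK-OV-3 cells (-1.85, adjusted p = 0.000767). Under cycling hypoxia in SK-OV-3 cells BAMBI stood at 9.31, above chronic hypoxia by 2.02 (adjusted p = 0.00135). The other antagonists measured, 3 of 5, were not called against control conditions.

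Of 12 SMADs and their regulators, 7 rose and 2 fell in PC-3 cells under chronic hypoxia, and 5 rose and 1 fell under cycling hypoxia, where 22.8% and 19.4% of bright genes rose. The ubiquitin ligase gene SMURF1 rose by 1.02 and 0.83 there (adjusted p = 3.3e-05 and 0.000217) and SMAD4, the common partner of the receptor SMADs, by 0.57 and 0.45. SMAD6, an inhibitory SMAD that acts mainly on BMP signalling, fell by 1.24 and 0.68 in PC-3 cells (adjusted p = 0.000389 and 0.011) and rose by 0.58 in SK-OV-3 cells under chronic hypoxia (adjusted p = 0.00255). In SK-OV-3 cells 3 rose and 2 fell under chronic hypoxia and 5 rose under cycling hypoxia, the first near the 19.6% of bright genes that rose. Under cycling hypoxia 14.9% of bright genes rose. The corepressor gene SKIL, which is also a target and stands in both lists, rose under cycling hypoxia in SK-OV-3 cells (0.87, adjusted p = 0.000164) and exceeded chronic hypoxia there by 0.72 (adjusted p = 0.000445). In WM793B cells 3 rose under chronic hypoxia, SMAD2 by 0.78, TGIF1 by 0.65 and SKIL by 0.46, and SKIL alone rose under cycling hypoxia (0.51, adjusted p = 0.0436). TGIF1, like SKIL, also stands in the list of targets, so these rises are counted again there. Of all bright genes in that line, 14.7% rose under chronic and 6.01% under cycling hypoxia.

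Of 17 commonly used TGF-beta target genes, 9 rose and 1 fell in SK-OV-3 cells under chronic hypoxia and 11 rose and none fell under cycling hypoxia, where 19.6% and 14.9% of bright genes rose. COL1A1, a collagen chain gene, averaged 11.52 under chronic and 10.22 under cycling hypoxia against 8.0 under control conditions (adjusted p = 6.3e-05 and 0.000791). PMEPA1, a feedback inhibitor of TGF-beta signalling, averaged 11.25 and 10.88 against 8.65 (adjusted p = 0.000107 and 0.000434), and KLF10, an early response transcription factor, averaged 11.72 under cycling hypoxia against 9.87. The TGIF1 repressor gene was the 1 that fell under chronic hypoxia (-0.48, adjusted p = 0.000862), and under cycling hypoxia it stood 1.14 above chronic hypoxia.

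In PC-3 cells 8 targets rose and 4 fell under chronic hypoxia, and 8 rose and 1 fell under cycling hypoxia, where 22.8% and 19.4% of bright genes rose. CDKN1A, the cell cycle inhibitor p21, averaged 9.13 and 8.48 against 6.72 under control conditions (adjusted p = 1.3e-06 and 1.2e-05), and ID1, an inhibitor of helix-loop-helix factors, averaged 12.20 and 11.81 against 10.25. CCN2, connective tissue growth factor, fell by 1.196 and 0.62 in PC-3 cells (adjusted p = 0.00029 and 0.0111). In WM793B cells the same gene averaged 13.10 under chronic and 13.13 under cycling hypoxia against 11.86 under control conditions (adjusted p = 0.00371 and 0.0117). There 4 targets rose and 1 fell under chronic hypoxia and 3 rose under cycling hypoxia, fibronectin FN1 among them (0.80 and 0.52), and the gene that fell was CDKN1A (-0.94, adjusted p = 0.00804). Of all bright genes in that line, 14.7% rose and 18.6% fell under chronic and 6.01% rose under cycling hypoxia. The targets respond to other signals as well, and the part of TGF-beta in these changes was not tested.

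**Figure D4:**
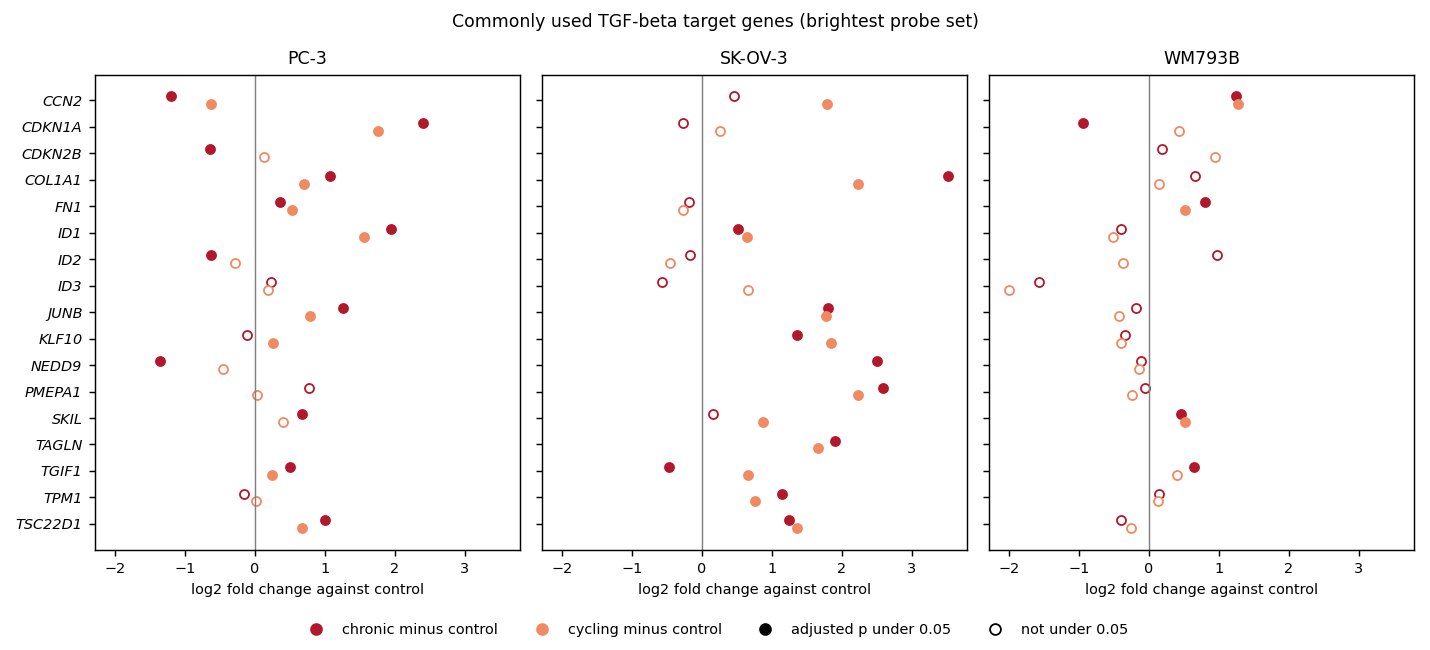
Log2 fold change against control conditions (x axis) of 17 commonly used TGF-beta target genes, in 1 panel per cell line, with chronic hypoxia in red and cycling hypoxia in orange; filled points have an adjusted p under 0.05, and genes at noise level in both groups are left out. COL1A1 lies farthest right in SK-OV-3 cells at 3.52, and CCN2 lies left of 0 in PC-3 cells and right of it in WM793B cells.

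Genes with a like pattern were sought for the 7 genes with a called and fitted change of at least 2-fold. Likeness was the Pearson correlation over the 27 arrays after the mean of each cell line was taken off, so that it rests on the responses to hypoxia. TGFBI was most like SRPX (r = 0.96), CCN5 (0.96) and ADTRP (0.96). TGFB1 was most like TSPO (0.94), the thiol oxidase gene QSOX1 (0.93) and the matrix cross-linking enzyme gene LOXL2 (0.93). TGFB2 was most like CSNK1D (0.92), CFAP96 (0.91) and the glycolytic enzyme gene ENO1 (0.91). SMAD7 was most like TIMP1, an inhibitor of matrix metalloproteinases (0.90), PMEPA1 (0.88) and QSOX1 (0.86), so that QSOX1 stood in the lists of both TGFB1 and SMAD7. TGFBR1 was most like CBL (0.92), STARD4 (0.92) and IL1RL1 (0.90), SMAD3 like CEP152 (0.87), CDA (0.87) and SPOCK1 (0.86), and INHBA like ADGRG6 (0.86), BBS9 (0.85) and ATG12 (0.82). The correlations describe 27 arrays that share 9 groups, and the genes were picked from all measured genes for being highest.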

How the data were processed

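RNA of 27 cultures was hybridised to Affymetrix Human Genome U133 Plus 2.0 arrays. The authors processed the array intensities with GC-RMA, and the deposited values are log2 signals per probe set, between 2.28 and 15.52. GC-RMA normalizes over all arrays at once and draws dim probes to a common low value. TGFB2 220406_at, for example, held 2.276 on all 9 arrays of each line. The paper puts its background noise level at 5 without naming the scale, and here 5 was read as log2. Some probe sets under it still kept an order. TGFBR1 206943_at averaged 4.66 under chronic and 4.19 under cycling hypoxia in PC-3 cells, against 3.13 under control conditions. The number of arrays limits the precision. Groups came from the labels, 3 arrays in each of 9 groups, and replicate arrays of a group differed in their values. The 62 control probe sets were left out.

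Probe sets were named from the platform annotation, in which 41091 carry 1 symbol, 1801 several and 11721 none. The members and gene lists were chosen with earlier results of these data known. List genes with no named probe set were not analysed here.

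limma 3.58.1 (R 4.3.3, lmFit and eBayes with a mean-variance trend) was fitted within each cell line on all 54613 probe sets, with Benjamini-Hochberg adjustment over them. The rule of the methods, which keeps probe sets that differ 1.5-fold from their median in 20% of the arrays and left 19791 here, was an alternative, since it leaves out 7 of the 24 member probe sets, all of TGFBR1 and TGFB3 among them, which are then missing from its counts. Differences between cell lines came from 1 fit over 27 arrays. All members are named by their brightest probe set, and list genes were read by theirs alone. From each list, at most the 3 largest rises and falls called in a comparison were named. Figures were drawn with matplotlib.

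Same-numbered arrays did not deviate together in most pairs (r from -0.086 to 0.288, above 0.1 in 7 of 27 pairs). Of the pairs with different numbers, 4 of 54 were above 0.1. In WM793B cells all 3 pairs of cycling and chronic arrays were above 0.1 (0.16, 0.102 and 0.167). The pairs of cycling and control arrays there stood at 0.155, 0.079 and 0.288. The replicate block changed no call of a member in either comparison.

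Alternatives were another scaling (quantile or median), other priors, only probe sets above noise level, the mean of all probe sets of a gene, the replicate block and leaving out each array.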

Additional observations from a re-analysis of the deposited data

Results flagged for a closer look

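The response of a gene was marked for a closer look where the fit over 27 arrays found that it differed between the 3 cell lines (limma's F-test of the differences, adjusted p under 0.05).

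For chronic hypoxia against control conditions these were TGFBI (adjusted p = 3.12e-07), TGFBR1 (5.84e-07), TGFB1 (2.64e-06), TGFBR2 (1.79e-05), SMAD3 (0.000116), TGFB2 (0.000272) and INHBA (0.0498). The log2 fold changes of TGFBR1 were 1.09 for PC-3, -0.15 for SK-OV-3 and 0.11 for WM793B, and those of TGFBR2 were -0.74, 0.32 and 0.06. TGFBI was at noise level in PC-3 cells and TGFB2 in SK-OV-3 cells, here and in the comparisons below, so their differences from those lines were not measured in size. INHBA was at noise level in SK-OV-3 control cells, so the size of its differences between lines was not measured. Its value was lost without 23 of the 27 arrays taken 1 at a time (adjusted p = 0.052 to 0.181).

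For cycling hypoxia they were TGFBI (4.6e-06), TGFBR2 (1.07e-05), TGFBR1 (2.39e-05), INHBA (0.000376), SMAD3 (0.000601), TGFB1 (0.000711) and SMAD7 (0.0261). SMAD7, at noise level in PC-3 cells, was lost without SK-OV-3 cycling replicate 1 or 3 or control replicate 1 or 2 (adjusted p = 0.0524 to 0.0717), and TGFB1 with the mean of its probe sets (adjusted p = 0.0679). For cycling against chronic hypoxia they were TGFB1 (0.0236), TGFB2 (0.0336) and INHBA (0.0357). The log2 differences of TGFB1 were -0.41 for PC-3, -0.24 for SK-OV-3 and 0.30 for WM793B, and the value was lost without WM793B cycling replicate 1 or chronic replicate 2 or 3 (adjusted p = 0.0625 to 0.0755) and with the mean of its probe sets (adjusted p = 0.668). Those of TGFB2 and INHBA were each lost without 8 of the arrays (adjusted p = 0.053 to 0.104 and 0.0504 to 0.114).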

How the results depend on the processing

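Counts are of the 10 genes called (limma, adjusted p under 0.05). In 1 fit over all 27 arrays the count was 7 in place of 4 for chronic hypoxia in SK-OV-3 cells, 2 in place of 0 for cycling against chronic hypoxia there, and 1 in place of 2 for chronic hypoxia in WM793B cells. Of the genes it added for chronic hypoxia in SK-OV-3 cells, TGFBR2 alone was above noise level, and the others were at noise level in both groups. Between cycling and chronic hypoxia in SK-OV-3 cells the count was also 2 with the variation filter of the methods, with only probe sets above noise level and with arrays centred on the median, and 1 with the mean of all probe sets. Chronic hypoxia in WM793B cells gave 1 with no trend or a robust prior. Cycling hypoxia in WM793B cells, with 1 gene called, gave 0 with a robust prior and 2 with the filter, only probe sets above noise level, quantile scaling or the mean of probe sets. Cycling against chronic hypoxia there, also with 1, gave 0 with a robust prior and 2 with the filter, only probe sets above noise level or the mean of probe sets. For PC-3 cells that comparison, with 2, gave 4 with median centring and 0 with the mean of probe sets. Of the 55 list genes, 12 in place of 19 were called between cycling and chronic hypoxia in PC-3 cells with the replicate block, and in WM793B cells the filter gave 18 in place of 11 for chronic and 8 in place of 4 for cycling hypoxia. The cause of these shifts was not tested.

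With 1 array left out, the counts for PC-3 cells ran from 5 to 8 (chronic), 6 to 7 (cycling) and 1 to 3 (cycling against chronic), those for SK-OV-3 from 3 to 4, 4 to 6 and 0 to 1, and those for WM793B from 1 to 2, 1 to 2 and 0 to 1. Genes whose response differed between lines numbered 6 to 7, 6 to 8 and 1 to 4 in the same order, and genes differing in control cells, with those at noise level in both lines counted, 9 to 10, 10 and 8. The replicate block lost the calls of INHBB for PC-3 under chronic hypoxia, of SMAD3 under chronic and INHBA under cycling hypoxia for SK-OV-3, and the difference between lines of INHBA for chronic (adjusted p = 0.0701) and cycling against chronic hypoxia (adjusted p = 0.053). It changed no other call of the 10 genes. No called change had the opposite sign under an alternative.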
